A study of Mus musculus with 4 samples.

Results

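Imprinted growth genes outside the Dlk1-Meg3 locus were followed in mouse embryonic stem (ES) cells after loss of leukemia inhibitory factor (LIF). The members were chosen by name from a list of 10: Sgce, Peg10, Peg3, Mest, Igf2, Plagl1 and Nnat, which are expressed from the paternal copy, and Grb10, H19 and Igf2r, which are expressed from the maternal copy in most tissues. Every probe set annotated to exactly 1 of these symbols was taken. That gave 20 of the 45101 probe sets on the array and 9 of 18193 genes, since no probe set was annotated to H19 alone. The cells were CGR8, an established mouse ES line, grown on gelatin with serum replacement. In 2 arrays the medium held LIF at 1000 U/ml, and in 2 arrays it held none, for 2 days, with all else shared per the labels. All 4 arrays come from this 1 line, the arrays of a group carry the numbers 1 and 2, and the labels do not say that they came from separate cultures. The p-values therefore cover the spread among these arrays alone, and that spread may be technical.

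Genomic imprinting marks genes by DNA methylation in the egg or sperm, so that 1 parental copy is silent in the offspring. Many paternally expressed genes promote fetal and placental growth, and many maternally expressed genes restrain it. Igf2 is a growth factor, Igf2r clears it from the cell surface, and Grb10 is an adaptor that dampens signalling of the insulin and IGF1 receptors. ES cell lines are known to vary in the methylation of imprinted genes in culture. The arrays measured total transcript and cannot tell the parental copies apart. In bulk samples such as these, fewer expressing cells and less RNA per cell cannot be told apart either.

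Values are MAS5 signals, 1 per probe set and array on an arbitrary linear scale, given as array 1 and then array 2. A positive log2 change is a higher mean in the cells without LIF, and SE is limma's moderated standard error. The arrays showed the loss of LIF at its known targets. Socs3, the feedback inhibitor of LIF signalling, read 4827 and 6198 with LIF and 360.0 and 261 without it (log2 change -4.16, limma adjusted p = 0.0046), and for Klf4, a naive ES cell factor, the change was -3.84 (adjusted p = 0.010). All 8 general ES cell markers lay above the filter on dim signals (a mean log2 signal of 4.51, which is a signal of 22.9), with summed signals of 88953 and 100984 with LIF against 65619 and 88058 without. The log2 changes of these 8 ran from -1.48 for Tdgf1 to 0.87 for Lin28a, with 6 of them negative and a median of -0.21. All 10 markers of the naive ES state were lower on both arrays without LIF (15.2% of all genes were), with sums of 54734 and 66832 against 16170 and 25378. For 8 epiblast markers the sums were 11968 and 8867 against 30487 and 32345. The arrays numbered 2 differed from those numbered 1 in both groups in ways not tied to LIF. The ratio of 3' to 5' Actb signal, which rises as RNA degrades, was 1.32 and 1.44 at number 1, against 1.83 and 1.77 at number 2. The same ratio for Gapdh was level, between 0.783 and 0.793 on the 4 arrays. A control probe set for 18S ribosomal RNA was higher at number 2, at 260.5 and 1933 with LIF and 307 and 1054 without. Markers of primitive endoderm, an extraembryonic cell type, were higher on array 2 than on array 1 in both groups for 14 of 14 genes (32% of all genes). Their summed signal was 7061 and 16997 with LIF (arrays 1 and 2) against 8665 and 29739 without LIF, and none of the 14 lay below the filter on dim signals. The summed signal of 9 neuroectoderm markers was 6264 and 7675 with LIF against 5081 and 3917 without, with Hes5 and Neurog2 below the filter. That sum is led by Stmn2 (log2 change -1.32), whereas 7 of the 9 had positive changes and the median was 0.78. For 9 mesoderm markers it was 534 and 598 against 840 and 818. For 9 trophoblast markers it was 3519 and 4882 against 1981 and 3337, with Cdx2, Elf5, Gata3 and Tpbpa below the filter. Tfap2c led that sum (-2.16), while 5 of the 9 changes were positive, Krt18 at 1.42 among them, with a median of 0.19. For 10 fibroblast markers it was 11533 and 10899 against 10723 and 7757, with Lum below the filter. Vim led that sum (-0.86), while 7 of the 10 changes were positive, Ccn2 at 1.67 and Dcn at 1.43 among them, with a median of 0.34. The part of these differences in the results below was not tested.

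None of the 9 members passed the test. The test was limma on log2 signals of the brightest probe set of each gene, with Benjamini-Hochberg adjustment over 14445 genes at a threshold of 0.05, which called 0.145% of genes (21 of 14445). At an unadjusted p of 0.05 or less 3 of 9 members qualified, Grb10, Sgce and Peg3, against 10.9% of all genes. All 9 lay above the filter. Both arrays without LIF lay above both arrays with LIF for Grb10, Sgce, Peg10 and Peg3, which is 4 of 9 (27.3% of all genes). Both lay below for Plagl1 alone (15.2% of all genes), so the groups were apart for 5 of 9 (42.5% of all genes). Groups apart with a mean difference of 2-fold or more were seen for 2 members upward, Grb10 and Sgce (7.36% of genes) and 0 downward (2.12%). The paternally expressed members had a median log2 change of 0.73 (7 genes, 6 of them positive), and the maternally expressed pair had a median of 0.75, with Grb10 at 1.52 and Igf2r at -0.01. The median over all tested genes was 0.09. With a common median set for every array it was -0.20, and the medians were then 0.44 and 0.46. The paternal median ranged from 0.24 without array 1 of the cells without LIF to 1.09 without array 2 of those cells. It was 1.05 without array 1 and 0.41 without array 2 of the cells with LIF.

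**Figure D1:**
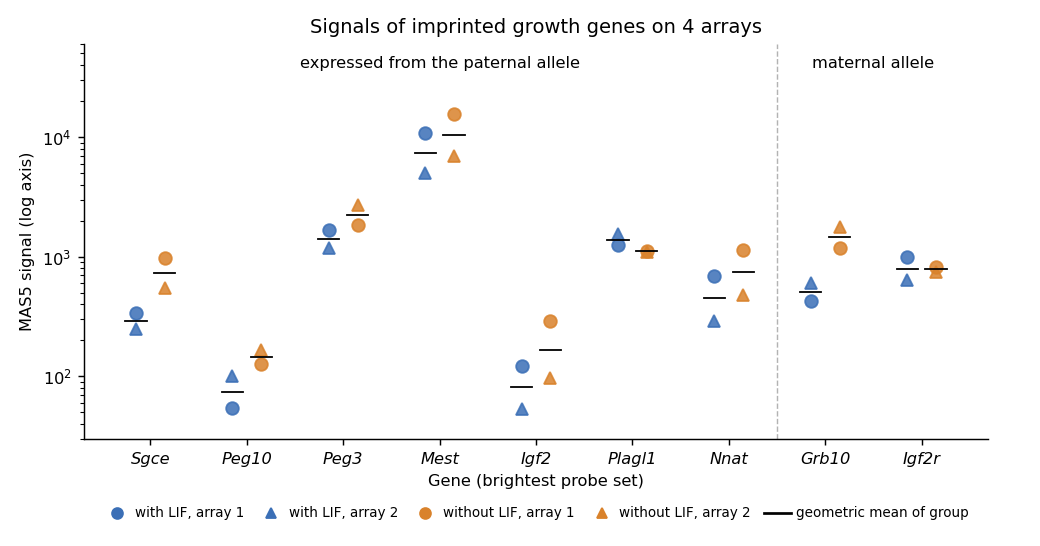
MAS5 signal (log axis) of the brightest probe set of each of 9 genes on 4 arrays; blue marks are cells with LIF, orange marks cells without LIF, circles arrays numbered 1, triangles arrays numbered 2, and bars group geometric means. Orange marks lie above both blue marks for Sgce, Peg10, Peg3 and Grb10, and below both for Plagl1. For Mest, Igf2, Nnat, Sgce and Igf2r the triangles lie below the circles in both groups.

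The windows before the start sites of the members on which these results turn are shown first, as the regions where parental methylation or a LIF-activated factor could act. RefSeq promoter windows (GRCm38.p6) were found for 7 of the 9 genes, 13 windows in all, and not for Sgce and Peg10. The 250 bases before the start were searched on both strands for TGCCGC, the core motif of the imprint protector ZFP57, and for TTCNNNGAA, the motif of STAT factors. Capitals mark TGCCGC or its reverse complement. The 5 sequences are those of Grb10, with the largest difference, of Mest and Nnat, which behaved alike across the arrays, of Plagl1, the only member lower without LIF on both arrays, and of Igf2r, with the smallest difference.
Grb10, chr11:12037421-12037670, minus strand: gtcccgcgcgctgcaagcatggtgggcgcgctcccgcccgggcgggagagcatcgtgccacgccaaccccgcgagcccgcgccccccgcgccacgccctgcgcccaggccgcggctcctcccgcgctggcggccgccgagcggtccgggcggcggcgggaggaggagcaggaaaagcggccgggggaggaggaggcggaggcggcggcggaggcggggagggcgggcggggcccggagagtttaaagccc
Mest, chr6:30737800-30738049, plus strand: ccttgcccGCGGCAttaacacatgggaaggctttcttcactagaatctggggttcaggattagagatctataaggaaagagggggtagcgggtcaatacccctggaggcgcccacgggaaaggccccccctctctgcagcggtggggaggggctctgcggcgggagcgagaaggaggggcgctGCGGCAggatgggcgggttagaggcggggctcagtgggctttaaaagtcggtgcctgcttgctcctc
Nnat, chr2:157559828-157560077, plus strand: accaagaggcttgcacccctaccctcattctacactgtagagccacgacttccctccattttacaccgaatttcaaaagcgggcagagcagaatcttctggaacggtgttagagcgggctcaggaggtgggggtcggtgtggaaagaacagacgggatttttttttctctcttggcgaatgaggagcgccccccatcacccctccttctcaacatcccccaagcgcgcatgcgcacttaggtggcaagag
Plagl1, chr10:13090582-13090831, plus strand: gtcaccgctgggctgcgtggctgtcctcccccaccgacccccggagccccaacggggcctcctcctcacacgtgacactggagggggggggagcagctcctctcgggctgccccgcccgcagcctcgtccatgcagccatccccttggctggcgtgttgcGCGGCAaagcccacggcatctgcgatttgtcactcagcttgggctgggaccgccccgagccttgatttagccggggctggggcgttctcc
Igf2r, chr17:12769707-12769956, minus strand: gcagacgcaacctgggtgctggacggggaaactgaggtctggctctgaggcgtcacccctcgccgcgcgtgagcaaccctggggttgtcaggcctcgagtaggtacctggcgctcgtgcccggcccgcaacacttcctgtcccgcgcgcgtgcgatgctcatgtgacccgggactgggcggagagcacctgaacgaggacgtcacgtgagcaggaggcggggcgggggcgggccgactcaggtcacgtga
TGCCGC was present in 3 of 13 member windows, which are 2 overlapping windows of Mest and the window of Plagl1, against 8.68% of 32851 RefSeq windows. TTCNNNGAA was present in 0 of 13, against 7.02% of all windows. The Grb10 window shown held 40 CpG dinucleotides, more than 98.7% of windows, and that of Igf2r held 27. A second Grb10 window, chr11:12027972-12028221, held 8 (more than 57.0% of windows), and a further Mest window held 7 with neither motif. The windows of Mest, Nnat and Plagl1 held 14, 12 and 19, and the median over all windows was 6. A match is a description of letters and not a binding site.

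Grb10 had the largest difference of the 9. Its brightest probe set read 423 and 608 on the arrays with LIF and 1194 and 1769 on the arrays without LIF. The lowest array without LIF was thus above the highest with LIF, and the change was nearly equal within arrays numbered 1 (1.50 on the log2 scale) and numbered 2 (1.54). The log2 change was 1.52 (2.87-fold, SE 0.28, 95% interval 0.85 to 2.19, limma adjusted p = 0.11), larger in size than that of 95.8% of tested genes. Without array 1 of the cells without LIF the log2 change was 1.80, and without array 2 of those cells it was 1.24. It was 1.26 without array 1 and 1.78 without array 2 of the cells with LIF. Each such fit leaves 1 array in a group, which is assumed to vary like the 2 arrays of the other group. Over the 13 alternatives of Grb10 the change ran from 0.79 to 1.80. The limma adjusted p ran from 4.3e-04, with the array number as a block, to 0.71, with the mean of its probe sets. The labels do not pair the numbers, and the fit with the block called 6.75% of all genes. The other Grb10 probe sets did not separate the groups. One read 93.2 and 64.2 with LIF and 206.5 and 72.2 without (log2 change 0.66), and the other read 77.1 and 27.5 with LIF and 135.7 and 20.3 without (0.19). Both of these were lower on array 2 than on array 1 in both groups, whereas the brightest was higher.

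Igf2r, the receptor that carries IGF2 to lysosomes, showed little difference. Its brightest probe set read 988 and 635 with LIF against 828 and 744 without LIF, so both arrays without LIF lay between those with LIF. The log2 change was -0.01 (SE 0.26, 95% interval -0.64 to 0.61, limma adjusted p = 0.99), an interval that does not cover a 2-fold change in either direction. Omitting array 1 with LIF gave 0.31, and omitting array 2 with LIF gave -0.33. Without array 1 of the cells without LIF it was -0.09, and without array 2 of those cells 0.06. A second probe set read 528 and 636 with LIF and 492 and 638 without (log2 change -0.05).

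Sgce and Peg10 are neighbours that share a promoter region and are both silenced on the maternal copy. Sgce encodes a membrane protein of the sarcoglycan family, and Peg10 a protein derived from a retrotransposon that is needed in the placenta. Sgce read 340.1 and 250.4 with LIF against 982 and 547 without LIF, so the groups did not overlap. Its log2 change was 1.33 (2.51-fold, SE 0.34, 95% interval 0.53 to 2.13, limma adjusted p = 0.20). Without array 1 of the cells without LIF the change was 0.91, and without array 2 of those cells it was 1.75. It was 1.55 without array 1 and 1.11 without array 2 of the cells with LIF. These fits rest on the same assumption on the lone array. Over 14 alternatives the limma adjusted p ran from 0.0033, with the array number as a block, to 0.72, with the dim second probe set in place of the brightest. A dim second probe set of Sgce had a log2 change of 1.12, with signals of 28.1 and 11.1 with LIF and 70.3 and 21.0 without.

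Peg10 was dim (mean log2 signal 6.69), and read 54.1 and 100.2 with LIF against 128 and 165 without LIF. These groups did not overlap either, and the log2 change was 0.98 (SE 0.45, 95% interval -0.09 to 2.05, limma adjusted p = 0.50). The pair differed in how they moved with array number. Sgce was lower on array 2 in both groups (log2 differences of -0.44 and -0.84), and Peg10 was higher on array 2 in both (0.89 and 0.37). Of their neighbours, Casd1 beside Sgce had a log2 change of 0.45, with both arrays without LIF above both with LIF, and Ppp1r9a beyond Peg10 had one of 0.22, with a dim probe set of it at -0.12.

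Peg3, a zinc finger protein of growth and maternal behaviour, had 5 probe sets. The brightest read 1672 and 1190.2 with LIF against 1828 and 2697 without LIF (log2 change 0.65, SE 0.26, 95% interval 0.03 to 1.28, limma adjusted p = 0.43). The difference lay mainly on the arrays numbered 2, where the log2 change was 1.18, against 0.13 on those numbered 1. A second probe set showed the same (-0.08 and 1.15). Another bright one read 1106 and 203 with LIF against 1103 and 359 without LIF, and so was lower on array 2 in both groups (log2 differences of -2.44 and -1.62), by more than it differed by LIF. The log2 change within its arrays numbered 1 was -0.0030, and within those numbered 2 it was 0.82. The other 2 probe sets lay below the filter, with no signal above 15.4.

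Mest and Nnat moved together across the 4 arrays. Mest, a hydrolase-like protein whose loss reduces growth, read 10736 and 5004 with LIF against 15625 and 6905 without LIF. The array numbered 2 was the lower of its group in each case, so the groups overlapped. The log2 change was 0.50 (SE 0.46, 95% interval -0.58 to 1.59, limma adjusted p = 0.75), with 0.54 within arrays numbered 1 and 0.46 within those numbered 2. The difference between array 2 and array 1 was larger in size, -1.10 with LIF and -1.18 without. Without array 2 with LIF the change was -0.05, and without array 1 without LIF it was -0.09.

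Nnat, a small membrane protein of neurons and endocrine cells, read 694 and 289.9 with LIF against 1148 and 482 without LIF. Its log2 change was 0.73 within each number, and 0.73 in the test (SE 0.52, 95% interval -0.50 to 1.96, limma adjusted p = 0.67). Array 2 was lower than array 1 (log2 differences of -1.26 with LIF and -1.25 without). The change by LIF was therefore nearly the same at both array numbers for Nnat and Mest, while the spread between numbers within a group exceeded it. Each gene had 1 probe set.

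Igf2, the fetal growth factor, was dim. It read 123 and 53.9 with LIF against 292 and 96.1 without LIF, and array 2 without LIF lay below array 1 with LIF. The log2 change was 1.04 (SE 0.64, 95% interval -0.48 to 2.56, limma adjusted p = 0.61), with 1.25 and 0.83 within the numbers. It was lower on array 2 by -1.19 with LIF and -1.60 without. Without array 1 without LIF the change was 0.24, and over 14 alternatives it ran up to 1.84. The second Igf2 probe set, below the filter, read 11.5 and 1.2 with LIF and 36.5 and 1.4 without, and so was near 1 on both arrays numbered 2.

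Plagl1, a zinc finger factor that arrests the cell cycle and regulates other imprinted genes, went the other way. Its brightest probe set read 1246.5 and 1542 with LIF against 1114 and 1099.5 without LIF (log2 change -0.33, SE 0.20, 95% interval -0.80 to 0.15, limma adjusted p = 0.61). A dimmer probe set read 54.8 and 64.2 with LIF and 11.3 and 18.9 without, a log2 change of -2.02 (95% interval -3.74 to -0.30, limma adjusted p = 0.57 over 26405 probe sets). The last, below the filter, read 17.4 and 42.8 against 12.1 and 9.6. All 3 probe sets were lower on both arrays without LIF than on both with LIF, but they differed in size, and the 2 dim ones read below 22.9, the signal at the filter, on both arrays without LIF.

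**Figure D2:**
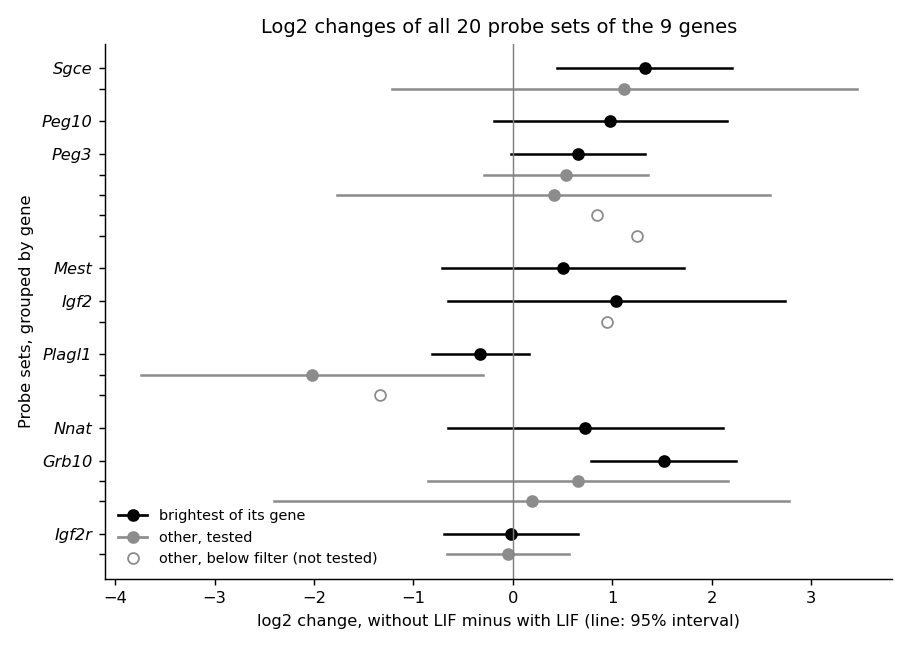
Log2 change without LIF minus with LIF for all 20 probe sets of the 9 genes, with 95% intervals from the fit over 26405 probe sets (black, brightest of its gene; grey, others; open, below the filter and not tested). The brightest probe sets of Grb10 and Sgce have intervals above 0, a dimmer one of Plagl1 has its interval below 0 (-3.74 to -0.30), and the other intervals cross 0.

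Across probe sets, 16 of the 20 lay above the filter and 0 of 16 passed limma over 26405 probe sets, where 0% of all probe sets passed. At an unadjusted p of 0.05 or less 3 of 16 qualified, against 7.72% of all probe sets. The groups did not overlap for 6 of 16, 4 higher and 2 lower without LIF, against 38.6% of all.

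Differences by LIF and by array number were then set side by side. Changes within arrays numbered 1 and within those numbered 2 were both positive for 7 of 9 members, against 40.1% of all genes, both negative for Plagl1, and of opposite sign for Igf2r. Mest, Nnat, Igf2, Sgce and Igf2r were lower on array 2 in both groups, which is 5 of 9 against 31.7% of all genes. Grb10 and Peg10 were higher on array 2 in both, which is 2 of 9 against 32% of all genes.

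**Figure D3:**
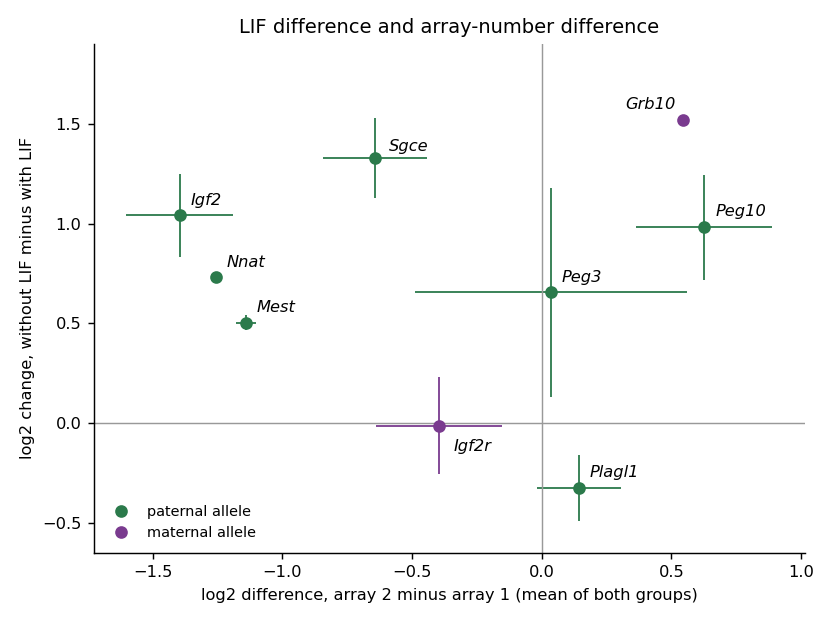
Log2 change by LIF (vertical axis) against the log2 difference between arrays numbered 2 and 1 (horizontal axis, mean of both groups) for the brightest probe set of 9 genes; bars span the values within the 2 numbers and within the 2 groups. Mest, Nnat and Igf2 lie at -1.14, -1.26 and -1.40 on the horizontal axis with positive changes by LIF, and Grb10 has a change of 1.52 with short bars.

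Genes next to Grb10 on the chromosome were then set beside it, a comparison chosen after the values had been seen, with gene order from RefSeq GRCm38.p6. None of them passed limma. Cobl, an actin nucleator that adjoins Grb10 and is itself imprinted in some tissues, read 1137 and 1193 with LIF against 403 and 519.9 without LIF. Its log2 change was -1.35 (SE 0.22, 95% interval -1.88 to -0.82, limma adjusted p = 0.082), and a dim second probe set had a change of -2.31. Ddc, the decarboxylase of dopamine and serotonin synthesis on the other side, read 2996 and 3906 with LIF and 2419 and 2626 without (log2 change -0.44, adjusted p = 0.48). Fignl1, an ATPase of DNA repair beyond Ddc, read 5400.4 and 5877 against 4433 and 3439 (-0.53, adjusted p = 0.37). These 3 of the 4 tested neighbours had both arrays without LIF below both with LIF (15.2% of all genes did), while Grb10 had both above. Single dim probe sets of Ddc and Fignl1 read the opposite way. The next gene, Ikzf1, had a log2 change of -0.16 (95% interval -1.37 to 1.04).

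**Figure D4:**
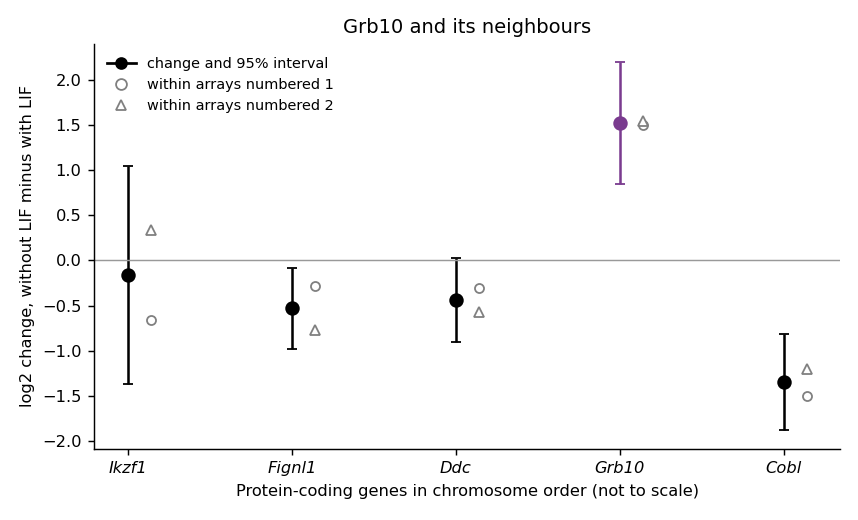
Log2 change without LIF minus with LIF (vertical axis) of Grb10 and protein-coding neighbours in chromosome order, with 95% intervals; open circles and triangles are changes within arrays numbered 1 and 2. Grb10 lies at 1.52, Cobl at -1.35, and Ddc and Fignl1 at -0.44 and -0.53.

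Other imprinted genes had medians above that of all genes. Of the paternally expressed list 15 of 20 genes were tested and 0 passed limma (3 at an unadjusted p of 0.05 or less), with a median of 0.42 and groups apart upward for 8 and downward for 2. Over all genes the shares were 10.9% at that unadjusted p, 27.3% apart upward and 15.2% apart downward. Ndn, a growth-suppressing protein of the Prader-Willi region, read 1363 and 986 with LIF against 2470 and 1644 without LIF (log2 change 0.80, adjusted p = 0.34), and 1 dim probe set of it, below the filter, read -0.12. Snrpn and Magel2 of the same region had log2 changes of 0.79 and 0.93 (adjusted p = 0.39 and 0.45), and Ddc is described above. Of the maternally expressed list 27 of 32 genes were tested and 0 passed (7 at an unadjusted p of 0.05 or less, against 10.9% of all genes). The median was 0.26, with groups apart upward for 15 and downward for 3 (27.3% and 15.2% of all genes). Cdkn1c, a cyclin-dependent kinase inhibitor that restrains fetal growth, read 147 and 81.7 with LIF and 283 and 315 without (log2 change 1.44, adjusted p = 0.22). Atp10a, a lipid flippase, and Dcn, a matrix proteoglycan that is also a fibroblast marker, had log2 changes of 1.21 and 1.43 (adjusted p = 0.14 and 0.24). A dim probe set of Dcn, below the filter, overlapped between groups, at 15.9 and 23.8 with LIF and 36.6 and 1.6 without (log2 change -1.35). Cobl, the gene of this list with the smallest p, was lower without LIF (log2 change -1.35, limma adjusted p = 0.082) and is described above. Some of these genes are imprinted only in certain tissues.

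In the IGF and insulin pathway, on which Igf2, Igf2r and Grb10 act, 27 of 31 listed genes were tested. None passed limma, and 3 had an unadjusted p of 0.05 or less (10.9% of all genes). The median was 0.27, with groups apart upward for 10 and downward for 1 (27.3% and 15.2% of all genes). Irs4, an insulin receptor substrate, read 32.5 and 26.4 with LIF and 94.9 and 215 without (log2 change 2.29, adjusted p = 0.19). Igf1r, the receptor through which IGF1 and IGF2 signal, read 137 and 122.5 with LIF and 333.5 and 183 without (0.93, adjusted p = 0.45). Foxo1, a factor restrained by insulin signalling, differed by 0.62 on the log2 scale (adjusted p = 0.48), and Pdpk1, the kinase that activates AKT, by -0.54 (adjusted p = 0.38). A dim probe set of Foxo1, below the filter, overlapped between groups, at 62.3 and 6.3 with LIF and 13.4 and 21.2 without (log2 change -0.23).

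Genes that protect or remove imprint methylation were tested for 19 of 20 listed. None passed limma, and 3 had an unadjusted p of 0.05 or less (10.9% of all genes). The median was 0.08, close to that of all genes. Groups were apart upward for 6 and downward for 3, shares close to the 27.3% and 15.2% of all genes. The de novo methyltransferases Dnmt3b and Dnmt3a had log2 changes of 1.20 and 1.09 (adjusted p = 0.065 and 0.21). Tet1, which oxidises methylcytosine, read 6692 and 8582 with LIF against 2836 and 4920 without LIF (-1.02, adjusted p = 0.25). Zfp57, the protein that keeps imprints methylated, read 606 and 613 with LIF and 349 and 496 without (-0.55, adjusted p = 0.50).

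**Figure D5:**
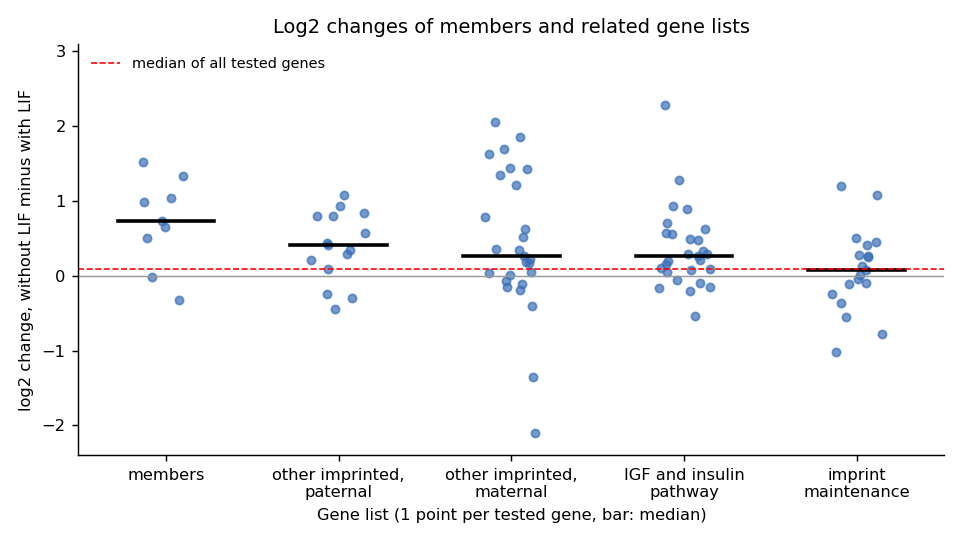
Log2 change without LIF minus with LIF of each tested gene (points) in 5 lists, with list medians (bars) and the median of all tested genes (dashed line, 0.09). The medians are 0.73 for the members, 0.42 and 0.26 for other paternally and maternally expressed genes, 0.27 for the IGF and insulin pathway and 0.08 for imprint maintenance.

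Genes with the most similar profile were found for Grb10 and Sgce, the members whose groups were apart by at least 1 on the log2 scale. Likeness was the Euclidean distance over 4 arrays between log2 signals centred on each gene's mean. For Grb10 these were Slc34a2, a phosphate carrier (distance 0.13), Mxd4, an antagonist of MYC (0.13), and 2200002J24Rik (0.20). For Sgce these were Antxr1, an anthrax toxin receptor (0.08), Sertad4 (0.09) and Zfp618 (0.10). Their log2 changes lay between 1.35 and 1.52. Closeness to the changes of Grb10 and Sgce follows from the choice by likeness over the same 4 arrays, and is no further result.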

How the data were processed

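The authors deposited linear MAS5 signal intensities, 1 per probe set and array, per the submitters' processing notes; the version of MAS5 is not given in the sources used here. The method scales each array to a common mean, so dim signals can differ in level from array to array. The median probe set read 69.9 and 59.6 with LIF against 95.5 and 65.5 without LIF, and no pair of arrays shared more than 127 values. The only value at 0 was raised to 0.1 before log2.

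Of 45101 probe sets, 34945 had 1 symbol, 932 had several, 9160 had none and 64 were controls; the Entrez identifiers of 9 of 9 members matched RefSeq (GRCm38.p6). For each gene the brightest probe set by mean log2 signal was used, and tested if that mean exceeded the 30th percentile over non-control probe sets. limma 3.58.1 (R 4.3.3; lmFit, eBayes with trend) compared 2 with 2 arrays, two-sided, with 2 residual degrees of freedom; an exact permutation test of 1 gene cannot go below 0.333. The fit was tested on simulated data. Alternatives were the filter, pseudocount, normalization, prior, probe set choice, replicate block and arrays left out.

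The text names all members, up to 4 genes of each list with the smallest p, the 3 nearest profiles of members 2-fold apart, Socs3 and Klf4. The members and lists were chosen with earlier results of these data known, so they are not independent evidence. Figures were drawn with matplotlib 3.10.9.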

Additional observations from a re-analysis of the deposited data

Results flagged for a closer look

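The probe set annotated to both H19 and Mir675, the microRNA gene within it, was outside the comparisons because it carries 2 symbols. It read 1273 and 1149 with LIF against 1775 and 3223 without LIF, so both arrays without LIF lay above both with LIF (log2 change 0.98, with 0.48 within arrays numbered 1 and 1.49 within those numbered 2). It was not tested, and its signal is assigned to neither gene.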

How the results depend on the processing

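The number of members passing limma was 0 in the test as reported and also without a filter, with a filter at the 50th percentile, with a pseudocount of 14.3, with quantile normalization, a common median, no trend, robust estimation, the mean of probe sets and the brightest plain probe set. With the replicate number as a block 4 members passed (Grb10, Sgce, Mest and Nnat, all higher without LIF), and 4 probe sets; the same fit called 6.75% of all genes. The labels do not say that the numbers pair the samples; the array 2 minus array 1 differences of the 2 groups correlated at r = 0.291 across 14445 genes, which are not independent replicates. Leaving out 1 array gave 0 to 2 members called (Grb10 and Sgce) and 0 to 0 member probe sets. The paternal median ranged from 0.24 to 1.09 with 1 array left out and the maternal from 0.65 to 0.86. The maternal median was 0.46 with a common median, 0.38 with the mean of probe sets and -0.013 with plain probe sets, where Igf2r alone remains. With 1 array left out the change of Mest ran from -0.086 to 1.09 (-0.05 without array 2 with LIF) and that of Igf2r from -0.33 to 0.31 (0.06 without array 2 without LIF). Over all genes 21 were called, against 975 with the block, 131 with a common median, 52 with robust estimation, 41 and 40 with the 50th percentile filter and the pseudocount, 14 and 12 with plain and averaged probe sets, 10 with quantile normalization, 0 without the trend (1589 at an unadjusted p of 0.05 or less), and 7 to 496 with 1 array left out. Signals under 22.9 limit what can be read from the dim probe sets of Igf2, Peg3 and Plagl1.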

Other observations

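Neighbours of the members other than Grb10 differed in both directions. Of 26 tested protein-coding genes within 3 places of these members, 5 had both arrays without LIF above both with LIF (27.3% of all genes) and 5 had both below (15.2% of all genes). Their median log2 change was 0.0063, 2 had an unadjusted p of 0.05 or less (10.9% of all genes) and 0 passed limma. At 2 places from Peg3, the meiotic kinase Aurkc read 1383 and 1397 with LIF and 797.5 and 927 without (log2 change -0.69, limma adjusted p = 0.25). At 3 places from Plagl1, Utrn read 2235 and 1622 with LIF and 2836 and 2583 without (0.51, limma adjusted p = 0.45). Beside Nnat, Blcap, whose intron holds Nnat, read 385 and 417 with LIF and 433 and 396 without (0.05). Beside Mest, Copg2 read 1298 and 1166 with LIF and 1396 and 881 without (-0.15). Gene order was taken from RefSeq GRCm38.p6, and these neighbours were chosen after the values had been seen.

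A probe set annotated to both Airn, the antisense transcript that silences the paternal Igf2r copy, and Igf2r read 48.8 and 5.2 with LIF and 10.7 and 14.1 without. The groups overlapped and its mean lay below the filter. The brightest probe set annotated to Airn alone lay above the filter. That one read 51.2 and 38 with LIF and 96.8 and 64.4 without (log2 change 0.84, limma adjusted p = 0.61).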
